A study of Homo sapiens with 24 samples.

Results

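The genes described here are regulators of p53 and direct p53 target genes, measured by RNA sequencing in 2 human acute myeloid leukaemia cell lines. They were taken by gene symbol from a list of 33, and 32 of the 33 had a row in the tables of both lines, among 35587 symbols in each. The expression of TP53TG1, a long noncoding RNA, was not analysed here, though its promoter window is among those searched below. The 24 libraries formed 6 groups of 4: OCI-AML2 cells and MOLM14 cells, each kept for 24 h with ARM165, with AZ2, or with DMSO, the solvent control. All groups of a line share that line's own genotype, and the labels name no allele or p53 status for either. ARM165 and AZ2 are given as code names only, without doses, and the labels do not say which of them is the degrader molecule of the series title. Nor do they say whether the 4 replicates were separate cultures, so a p-value speaks of library-to-library spread that could be purely technical. Values are normalized estimated reads per gene, given separately for each line. How they were scaled is not stated, so a level in one line was never set against a level in the other.

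p53 is a transcription factor that is held at a low level in unstressed cells, because MDM2 marks it for destruction and MDM4 blocks its activity. When DNA damage, nucleolar stress or other signals free it from these inhibitors, p53 binds paired half-sites in DNA and raises the transcription of genes for cell cycle arrest, DNA repair, cell death and metabolism. MDM2 is itself one of these targets, which closes a negative feedback loop. In acute myeloid leukaemia p53 is less often mutated than in most solid tumours, and its inhibitors are therefore studied as drug targets. Many of its targets, GDF15 among them, are also induced by other stress pathways, so a change of these mRNAs does not by itself report on p53 protein, which was not measured.

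Depth ran from 35.44 to 58.97 M (mega) estimated reads in each library, taking the low value that recurs most often in a library as 1 read. In MOLM14 the AZ2 libraries were shallower than the DMSO libraries, with 36.13 to 38.68 M against 44.85 to 58.97 M estimated reads. ARM165 replicates 1, 2 and 4 of MOLM14, at 40.03, 35.44 and 38.89 M, also lay below the DMSO range, and replicate 3 was at 50.22 M. The totals of the scaled values in MOLM14 were 37.3 to 41.19 M with ARM165 and 43.27 to 44.96 M with DMSO. In OCI-AML2 they were 42.17 to 43.78 M and 42.85 to 45.4 M. ARM165 replicate 4 of MOLM14, which had the total of 41.19 M, was the highest library of its group for 16 of 31 tested members (51.6%). It was the highest for 44.2% of all genes. Of the 16 myeloid markers, 16 were found in each line, and their summed level was lower with ARM165: 67380 to 70090 with ARM165 and 162200 to 170300 with DMSO in OCI-AML2. In MOLM14 the sum was 77290 to 92340 with ARM165 and 168200 to 178500 with DMSO. Single markers went both ways: 11 of 16 were called lower and 2 higher (PTPRC and CD14) in OCI-AML2, and 9 of 15 tested were called lower and 4 higher (PTPRC, SPI1, CEBPE and ITGAM) in MOLM14. PTPRC, the pan-leukocyte marker CD45, was at 5915 to 6621 with ARM165 and 2134 to 2566 with DMSO in MOLM14. The sum of 9 T and NK cell markers in MOLM14 was 1819 to 1972 with ARM165 and 678 to 773 with DMSO, of which CD8A made 1329 to 1469 and 26.6 to 54.2. CD8A alone of the 4 tested markers of this list was called higher in MOLM14. The other 3 were called lower, with NKG7 at 359 to 450 with ARM165 and 482 to 534 with DMSO, CD247 at 1.08 to 20 with ARM165 and 68.2 to 98.1 with DMSO, and GNLY at 24.6 to 58.8 with ARM165 and 47.6 to 114 with DMSO. CD3D, CD3E and CD3G reached no more than 9.31 in any ARM165 library of MOLM14. The 10 epithelial cell and fibroblast markers summed to 3633 to 3927 with ARM165 and 2094 to 2401 with DMSO in MOLM14, with KRT18 at 3060.0 to 3311 with ARM165 and 1790.0 to 2108 with DMSO. KRT18 and KRT8 (424 to 625 with ARM165 and 208 to 266 with DMSO) were called higher and the other 2 tested were not called, among them COL1A1 at 25.8 to 42.2 with ARM165 and 2.84 to 26.9 with DMSO. EPCAM was at 0.671 to 5.50 with ARM165 and 0 to 10.2 with DMSO. In OCI-AML2 the T and NK list summed to 564 to 694 with ARM165 and 810 to 942 with DMSO, and the epithelial and fibroblast list to 33.6 to 58.7 and 45.8 to 84.0. The B cell sums and the erythroid and megakaryocyte sums were no higher than 413 and 59.5 in any ARM165 library of either line. The part of these markers in the changes below was not tested.

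The genes are linked by their annotation as p53 targets, and their promoter letters are shown first. RefSeq promoter windows on GRCh38.p14, running from 250 bases before to 50 bases after a transcript start, were matched to 30 of the 33 listed genes in 41 windows. RRM2B, TP53INP1 and CMBL had none. Each window was searched on both strands for 2 copies of the 10-base p53 half-site consensus, separated by 0 to 13 bases, with the core C and G of each half-site kept. A match with at most 2 mismatches was present in 4 of 30 members (13.3%), against 3.62% of 27305 genes with a promoter window. With at most 3 mismatches the share was 8 of 30 members (26.7%), against 15.3% of genes. These are shown as a description of letters in the window, and no binding was measured. The 5 matches below are of DDB2, which alone of the members matched without a mismatch, as did 0.0366% of genes, of MDM2, AEN and FDXR with 2 mismatches, and of GDF15, the member with the largest change, with 3. Capitals mark the half-sites and lower case the spacer, and all are written 5′ to 3′ on the strand of the gene.
DDB2: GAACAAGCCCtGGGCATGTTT
MDM2: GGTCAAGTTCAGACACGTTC
AEN: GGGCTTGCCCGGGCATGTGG
FDXR: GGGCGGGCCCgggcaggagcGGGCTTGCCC
GDF15: AGCCATGCCCGGGCAAGAAC
The DDB2 match lies at chr11:47214979-47214999 on the plus strand, and that of GDF15 at chr19:18386186-18386205 on the plus strand, both within the 50 bases after the start. Those of MDM2 at chr12:68808923-68808942 (plus strand), AEN at chr15:88621306-88621325 (plus strand) and FDXR at chr17:74872996-74873025 (minus strand) lie before it. MDM2, DDB2 and FDXR have more than 1 window. The MDM2 site lies in 2 overlapping windows of its 2 downstream starts, the DDB2 site in the downstream one of its windows, and the FDXR site in the upstream one. The other members with a match at 3 mismatches were PLK2, RPS27L and ZMAT3.

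The 250 bases before the start are printed for the first of the 2 downstream starts of MDM2, the feedback inhibitor, at chr12:68808767-68809016 (plus strand), and for AEN at chr15:88621090-88621339 (plus strand), to show where in each window the paired half-sites fall (capitals).
MDM2: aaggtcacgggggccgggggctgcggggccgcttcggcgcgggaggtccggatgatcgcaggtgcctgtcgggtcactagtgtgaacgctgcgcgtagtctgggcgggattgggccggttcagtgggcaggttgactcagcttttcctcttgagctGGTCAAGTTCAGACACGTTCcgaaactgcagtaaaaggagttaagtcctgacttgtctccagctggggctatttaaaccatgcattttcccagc
AEN: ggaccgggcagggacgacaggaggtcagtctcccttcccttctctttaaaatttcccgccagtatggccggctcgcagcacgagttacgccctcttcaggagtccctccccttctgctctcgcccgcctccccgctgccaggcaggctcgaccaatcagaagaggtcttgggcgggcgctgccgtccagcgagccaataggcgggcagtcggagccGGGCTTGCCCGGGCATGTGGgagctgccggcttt
Both genes rose with ARM165 in both lines, as described below, and so did many members with no such match in their window.

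With ARM165, most of the p53 regulators and targets were higher than with DMSO in both lines. Changes are differences of mean log2(value + 1) given with their standard error, a scale that understates the change of low genes. A gene was called changed when its adjusted p over all genes tested, by limma with Benjamini-Hochberg adjustment, was under 0.05. In OCI-AML2, 22 of the 30 members tested rose, 5 fell and 3 did not pass, where 34.2% of all 15377 genes rose and 31.6% fell. In MOLM14, 21 of 31 rose, 3 fell and 7 did not pass, against a background of 35.5% of 15288 genes higher and 34.0% lower. The median log2 change of the members was 0.71 in OCI-AML2 and 0.84 in MOLM14, beside 0.034 and 0.031 over all genes tested. SPATA18 did not reach the filter on low values in MOLM14, and PERP and TNFRSF14 did not in OCI-AML2. Of the 29 members tested in both lines, 20 rose in both and 3 fell in both (TRIAP1, TP53I11 and PIDD1), where 26.8% of 14287 genes tested in both lines rose in both and 24.6% fell in both. No member was called in opposite directions, as 4.45% of genes were. CYFIP2 rose in MOLM14 alone and TRAF4 in OCI-AML2 alone, CMBL and ACER2 fell in OCI-AML2 alone, and RPS27L and POLH passed in neither. Differences between the lines were tested separately and are given further on. Because bulk RNA was measured, fewer cells of a kind and less RNA per cell cannot be told apart.

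**Figure D1:**
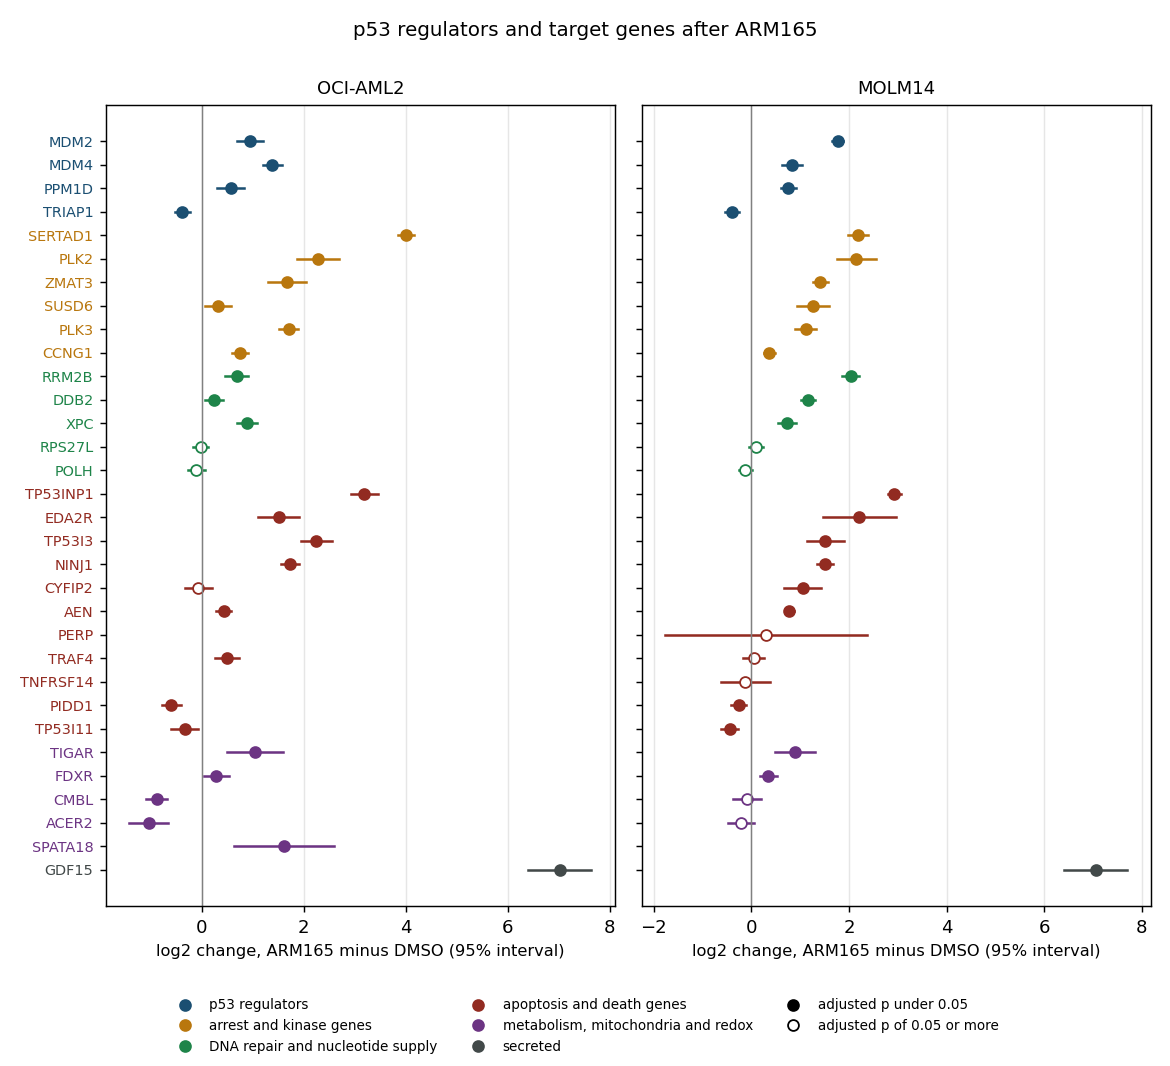
Log2 change of each member with ARM165 minus DMSO (points, x axis) with its 95% interval (bars), in OCI-AML2 on the left and MOLM14 on the right; rows are members in colours of their role, and filled points have an adjusted p under 0.05. GDF15 stands far to the right in both lines, at 7.01 and 7.05, and most other filled points lie above 0.

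Within a role group the members did not all move alike. Of the 4 measured members placed by hand under p53 regulators, MDM2, MDM4 and PPM1D rose in both lines and TRIAP1 fell in both. Over all genes 26.8% rose in both and 24.6% fell in both. TRIAP1 is a p53 target, and its product, described below, is not a regulator of p53 like the other members of the group. MDM2 encodes the ubiquitin ligase that targets p53, and values below are normalized estimated reads for replicates 1 to 4. In OCI-AML2, MDM2 was at 4069.8, 3956, 4785 and 4555 with ARM165, against 2246, 2869, 1984 and 1981 with DMSO. MDM2 in MOLM14 was at 10668, 11068, 10473 and 11834 with ARM165, against 3150.3, 3156, 3176 and 3449 with DMSO. All 4 ARM165 libraries lay above all 4 DMSO libraries in each line. MDM2 rose by 0.95 ± 0.12 (adjusted p = 2.97e-06) in OCI-AML2 and by 1.77 ± 0.048 (adjusted p = 1.77e-13) in MOLM14. As ratios of group means these are 1.91-fold and 3.41-fold. MDM4 encodes the related protein that binds p53 and blocks its transcriptional activity. In OCI-AML2, MDM4 was at 23749, 19244, 20517 and 21938 with ARM165, against 7519, 9096, 7827 and 8305 with DMSO. MDM4 in MOLM14 was at 8649, 9311, 7683 and 6695 with ARM165, against 4211, 4695, 4638 and 4378 with DMSO. The lowest ARM165 library again exceeded the highest DMSO library in both lines. MDM4 rose by 1.38 ± 0.085 (adjusted p = 9.38e-10) in OCI-AML2 and by 0.84 ± 0.095 (adjusted p = 9.98e-07) in MOLM14. PPM1D encodes the phosphatase WIP1, which removes activating phosphates from p53 and from the kinases upstream of it. In OCI-AML2, PPM1D was at 1081, 956, 1094 and 1298 with ARM165, against 834, 786, 599 and 769.5 with DMSO. PPM1D in MOLM14 was at 2646, 2706, 2250.0 and 2668 with ARM165, against 1440.5, 1511, 1468 and 1624 with DMSO. Groups did not overlap in either line. PPM1D rose by 0.57 ± 0.12 (adjusted p = 0.00078) in OCI-AML2 and by 0.76 ± 0.073 (adjusted p = 1.63e-07) in MOLM14. TRIAP1 encodes a small mitochondrial protein that takes part in lipid transfer and restrains apoptosis. In OCI-AML2, TRIAP1 was at 2694, 2805, 2722 and 2763 with ARM165, against 3359, 4017, 3794 and 3189 with DMSO. TRIAP1 in MOLM14 was at 3924, 3795, 3883 and 4584 with ARM165, against 5392, 5228, 5608 and 5032 with DMSO. Here every ARM165 library lay below every DMSO library. TRIAP1 changed by -0.38 ± 0.072 (adjusted p = 0.000241) in OCI-AML2 and by -0.40 ± 0.064 (adjusted p = 5.17e-05) in MOLM14.

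**Figure D2:**
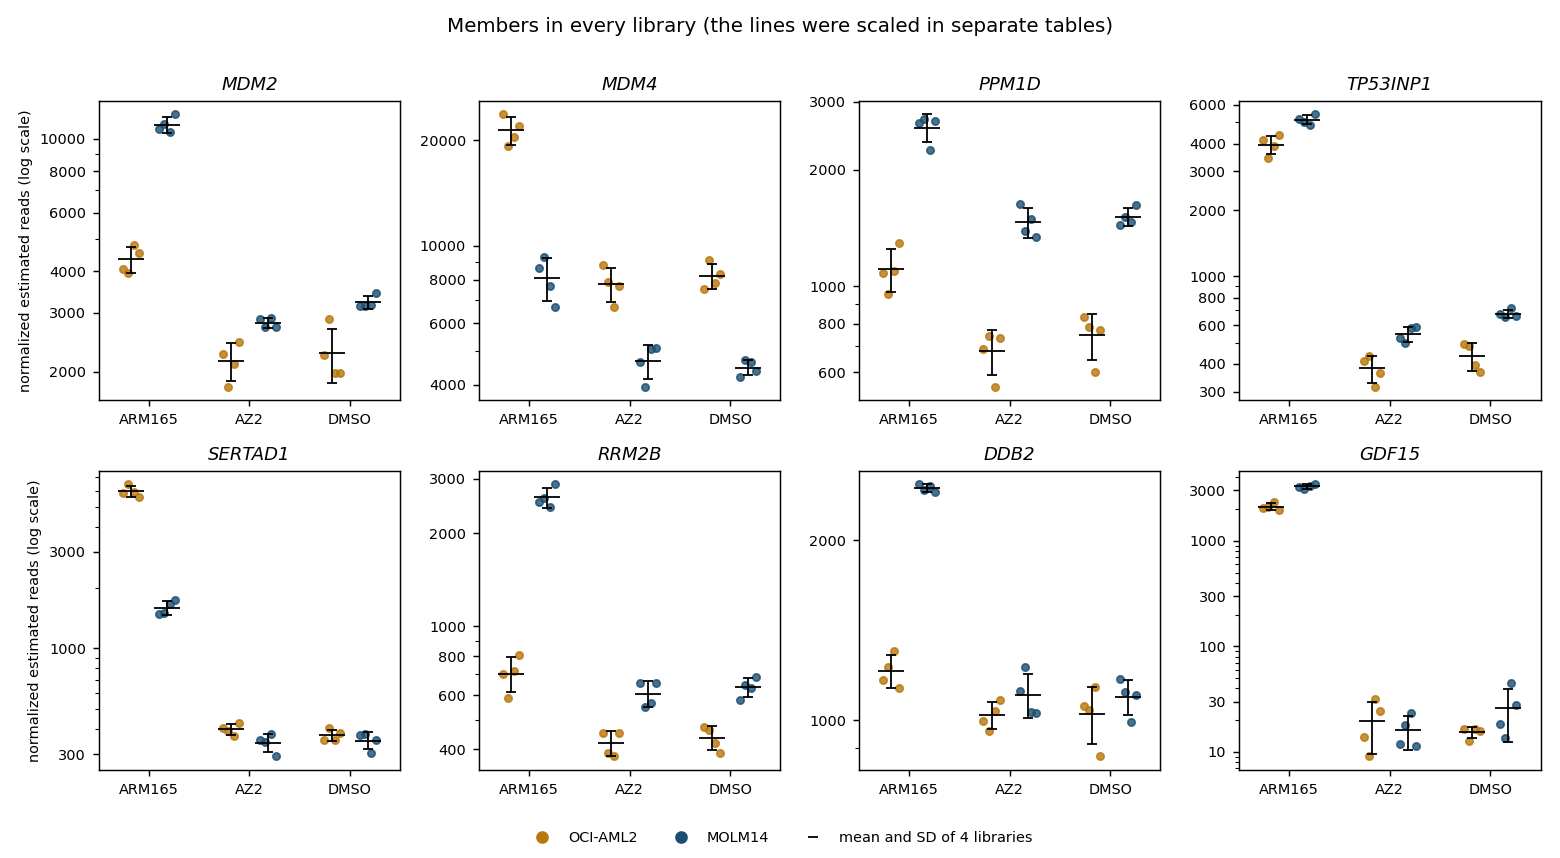
Normalized estimated reads (y axis, log scale) of 8 members in every library, with ARM165, AZ2 and DMSO from left to right; points are libraries of OCI-AML2 and MOLM14, and black bars are the mean and SD of 4 libraries. The ARM165 points stand above those of AZ2 and DMSO, except for DDB2 in OCI-AML2, where the ARM165 and DMSO points overlap; heights are comparable within a line and not between lines.

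All 6 members placed by hand under arrest and kinase genes rose in both lines, where 26.8% of all genes did. Not all of them act in arrest. SERTAD1 encodes a cofactor of CDK4 and E2F-dependent transcription. In OCI-AML2, SERTAD1 was at 5842, 6488, 5966 and 5608 with ARM165, against 352, 402, 354 and 383 with DMSO. SERTAD1 in MOLM14 was at 1472, 1498, 1659.9 and 1742 with ARM165, against 372, 377, 303 and 351 with DMSO. The separation was wide in both lines and much wider in OCI-AML2. SERTAD1 rose by 4.00 ± 0.074 (adjusted p = 2.21e-15) in OCI-AML2 and by 2.18 ± 0.098 (adjusted p = 2.30e-11) in MOLM14. In OCI-AML2 its change ranked 142 from the highest of 15377 genes. PLK2 and PLK3 encode Polo-like kinases that answer to cell stress. In OCI-AML2, PLK2 was at 232, 222, 293 and 269.5 with ARM165, against 46.1, 53.7, 66.4 and 42.9 with DMSO. PLK2 in MOLM14 was at 367, 442, 476 and 469.5 with ARM165, against 129, 97.9, 81.7 and 87.4 with DMSO. ARM165 and DMSO libraries did not overlap. PLK2 rose by 2.27 ± 0.19 (adjusted p = 4.00e-08) in OCI-AML2 and by 2.15 ± 0.19 (adjusted p = 5.36e-08) in MOLM14. In OCI-AML2, PLK3 was at 781, 738, 681 and 701 with ARM165, against 205, 223, 226 and 235 with DMSO. PLK3 in MOLM14 was at 539, 516, 516 and 496 with ARM165, against 215, 253, 251 and 237 with DMSO. PLK3 was likewise higher in every ARM165 library. PLK3 rose by 1.70 ± 0.091 (adjusted p = 1.93e-10) in OCI-AML2 and by 1.11 ± 0.10 (adjusted p = 8.64e-08) in MOLM14. ZMAT3 encodes a zinc finger protein that binds RNA and regulates splicing. In OCI-AML2, ZMAT3 was at 422, 355, 434 and 394 with ARM165, against 109, 138, 108 and 148 with DMSO. ZMAT3 in MOLM14 was at 2036, 1884, 2005 and 2395 with ARM165, against 701, 819, 776 and 813 with DMSO. No ARM165 library reached down to the DMSO range. ZMAT3 rose by 1.67 ± 0.17 (adjusted p = 3.68e-07) in OCI-AML2 and by 1.42 ± 0.075 (adjusted p = 1.58e-10) in MOLM14. SUSD6, a membrane protein gene induced by p53, averaged 186 ± 6.12 with ARM165 and 148 ± 9.81 with DMSO in OCI-AML2, and 175 ± 19.9 with ARM165 and 72.5 ± 8.23 with DMSO in MOLM14 (SD, n = 4). SUSD6 rose by 0.32 ± 0.12 (adjusted p = 0.0285) in OCI-AML2 and by 1.26 ± 0.15 (adjusted p = 2.01e-06) in MOLM14. The OCI-AML2 call of SUSD6 was lost with quantile normalization (adjusted p = 0.264) and without ARM165 replicate 1 or 3 or DMSO replicate 3 (adjusted p = 0.0529, 0.0653 and 0.0777). CCNG1, the gene of cyclin G1, which recruits a phosphatase to MDM2, averaged 4885 ± 423 with ARM165 and 2919.6 ± 182 with DMSO in OCI-AML2, and 4671 ± 355 with ARM165 and 3605 ± 179 with DMSO in MOLM14. CCNG1 rose by 0.74 ± 0.074 (adjusted p = 2.58e-07) in OCI-AML2 and by 0.37 ± 0.055 (adjusted p = 2.03e-05) in MOLM14.

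Of the 5 genes of DNA repair and nucleotide supply, RRM2B, DDB2 and XPC rose in both lines, against 26.8% of all genes, and POLH and RPS27L passed in neither. RRM2B encodes the p53-inducible subunit of ribonucleotide reductase, which makes deoxynucleotides for repair outside S phase. In OCI-AML2, RRM2B was at 701, 588, 717 and 808 with ARM165, against 474, 462, 421 and 389 with DMSO. RRM2B in MOLM14 was at 2533, 2595, 2435 and 2885 with ARM165, against 579, 645, 630.0 and 687 with DMSO. The groups were apart in both lines, by a larger ratio in MOLM14 (1.61-fold in OCI-AML2 and 4.11-fold in MOLM14, as ratios of means). RRM2B rose by 0.68 ± 0.11 (adjusted p = 4.71e-05) in OCI-AML2 and by 2.04 ± 0.08 (adjusted p = 5.77e-12) in MOLM14. DDB2 encodes a subunit of the complex that recognises ultraviolet lesions in DNA. In OCI-AML2, DDB2 was at 1166, 1228, 1307 and 1132 with ARM165, against 1058, 1041, 1136 and 870.4 with DMSO. DDB2 in MOLM14 was at 2484, 2432, 2466 and 2407 with ARM165, against 1172, 1113, 993 and 1103 with DMSO. In OCI-AML2 the lowest ARM165 library was below the highest DMSO library, whereas in MOLM14 the groups were far apart. DDB2 rose by 0.24 ± 0.083 (adjusted p = 0.0194) in OCI-AML2 and by 1.16 ± 0.066 (adjusted p = 3.32e-10) in MOLM14. The OCI-AML2 call was lost without ARM165 replicate 3 (adjusted p = 0.0655), without DMSO replicate 4 (adjusted p = 0.0726) and with quantile normalization (adjusted p = 0.0812). XPC encodes another damage sensor of nucleotide excision repair. In OCI-AML2, XPC was at 594, 557, 526 and 509 with ARM165, against 283, 293, 309.7 and 295 with DMSO. XPC in MOLM14 was at 789.7, 733, 838 and 786 with ARM165, against 461, 461, 541 and 433 with DMSO. ARM165 libraries exceeded DMSO libraries without overlap. XPC rose by 0.88 ± 0.09 (adjusted p = 3.48e-07) in OCI-AML2 and by 0.73 ± 0.082 (adjusted p = 9.59e-07) in MOLM14. POLH, the gene of the translesion polymerase eta, had changes of -0.11 ± 0.079 in OCI-AML2 (95% interval -0.28 to 0.06) and -0.12 ± 0.065 in MOLM14 (95% interval -0.26 to 0.017), with adjusted p of 0.245 and 0.107. With quantile normalization POLH was called lower in OCI-AML2 (adjusted p = 0.0468). RPS27L, a ribosomal protein gene paralogous to RPS27 with which it may share reads, had changes of -0.024 ± 0.066 (95% interval -0.17 to 0.12) and 0.10 ± 0.065 (95% interval -0.039 to 0.24), with adjusted p of 0.77 and 0.184. In MOLM14 it was called higher with quantile normalization (adjusted p = 0.017).

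The genes of apoptosis and other forms of cell death moved in both directions. In OCI-AML2, 6 of 9 tested rose and 2 fell, against 34.2% and 31.6% of all genes. In MOLM14, 6 of 11 rose and 2 fell, against 35.5% and 34.0%. TP53INP1 encodes a nuclear protein that promotes p53-dependent death and autophagy. In OCI-AML2, TP53INP1 was at 4155, 3456, 3890.2 and 4364 with ARM165, against 494, 485, 396 and 367 with DMSO. TP53INP1 in MOLM14 was at 5203, 5041, 4866 and 5435 with ARM165, against 671, 652, 715 and 657 with DMSO. The gap between groups was wide in both lines. TP53INP1 rose by 3.19 ± 0.12 (adjusted p = 3.77e-12) in OCI-AML2 and by 2.93 ± 0.064 (adjusted p = 1.54e-14) in MOLM14. Its change ranked 272 from the highest in OCI-AML2 and 381 in MOLM14. NINJ1 encodes the membrane protein that ruptures the plasma membrane of dying cells. In OCI-AML2, NINJ1 was at 2147, 2494, 2269.7 and 2131 with ARM165, against 657, 707, 731 and 614 with DMSO. NINJ1 in MOLM14 was at 2126, 2027, 2165 and 2287 with ARM165, against 689.6, 684, 826 and 832 with DMSO. Every ARM165 library was above the DMSO range. NINJ1 rose by 1.74 ± 0.083 (adjusted p = 5.25e-11) in OCI-AML2 and by 1.51 ± 0.074 (adjusted p = 6.69e-11) in MOLM14. TP53I3 encodes a quinone oxidoreductase-like protein linked to reactive oxygen species. In OCI-AML2, TP53I3 was at 792, 737, 878 and 779.9 with ARM165, against 160.0, 156, 166 and 187 with DMSO. TP53I3 in MOLM14 was at 244, 328, 272 and 319 with ARM165, against 119, 88.0, 82.5 and 117 with DMSO. Groups were again separate. TP53I3 rose by 2.24 ± 0.14 (adjusted p = 1.32e-09) in OCI-AML2 and by 1.52 ± 0.18 (adjusted p = 1.59e-06) in MOLM14. AEN encodes a nuclease that degrades DNA in apoptotic cells, and its promoter window is printed above. In OCI-AML2, AEN was at 1390.2, 1318, 1383 and 1358 with ARM165, against 1063, 1079.6, 1000.3 and 908 with DMSO. AEN in MOLM14 was at 3287, 3162, 3227 and 3577 with ARM165, against 1919.6, 1876, 1965 and 1935 with DMSO. The differences were modest in size but without overlap. AEN rose by 0.43 ± 0.068 (adjusted p = 4.28e-05) in OCI-AML2 and by 0.78 ± 0.046 (adjusted p = 5.46e-10) in MOLM14.

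EDA2R, a receptor of the tumour necrosis factor family, had low values, with 326, 297, 285 and 389 with ARM165 against 139.7, 127, 124 and 72.9 with DMSO in OCI-AML2. EDA2R in MOLM14 had 129, 106, 81.8 and 90.9 with ARM165 against 20.8, 15.4, 22.8 and 26.0 with DMSO. EDA2R rose by 1.51 ± 0.19 (adjusted p = 3.32e-06) in OCI-AML2 and by 2.21 ± 0.35 (adjusted p = 3.79e-05) in MOLM14. CYFIP2, which encodes a subunit of the WAVE complex that drives actin branching, parted the lines. In OCI-AML2, CYFIP2 had 358, 363, 445 and 369 with ARM165, against 467, 413, 416 and 323 with DMSO. CYFIP2 in MOLM14 had 191, 157, 189 and 155 with ARM165, against 81.6, 67.6, 93.2 and 90.8 with DMSO. The groups overlapped in OCI-AML2 and were separate in MOLM14, where the gene rose by 1.05 ± 0.18 (adjusted p = 6.66e-05). The OCI-AML2 change was -0.068 ± 0.12 (adjusted p = 0.65). TRAF4, an adaptor gene of receptor signalling, rose by 0.49 ± 0.11 (adjusted p = 0.000837) in OCI-AML2, while its change in MOLM14 was 0.056 ± 0.10 (adjusted p = 0.638). PIDD1, the scaffold of the complex that activates caspase 2, was lower in both lines. PIDD1 averaged 1733 ± 220.3 with ARM165 and 2613 ± 134 with DMSO in OCI-AML2, and 1883 ± 188 with ARM165 and 2247 ± 142 with DMSO in MOLM14 (SD, n = 4). The changes of PIDD1 were -0.60 ± 0.088 (adjusted p = 2.00e-05) and -0.26 ± 0.069 (adjusted p = 0.00376). TP53I11, a membrane protein gene named for its induction by p53, also fell, with changes of -0.34 ± 0.13 (adjusted p = 0.0283) in OCI-AML2 and -0.44 ± 0.08 (adjusted p = 0.000154) in MOLM14. Its OCI-AML2 call was lost without ARM165 replicate 1, 3 or 4 (adjusted p = 0.0875, 0.0576 and 0.0711) and without DMSO replicate 1 or 3 (adjusted p = 0.0646 and 0.0757). PERP, a tetraspan membrane protein gene of desmosomes, was near the floor. In OCI-AML2 PERP had 8.99, 0.773, 6.94 and 1.02 with ARM165 and 5.91, 15.5, 0 and 2.27 with DMSO, and it was not tested there. PERP in MOLM14 had 8.48, 4.21, 0 and 29.7 with ARM165 and 9.85, 3.86, 0 and 11.2 with DMSO (change 0.31 ± 0.97 (adjusted p = 0.791)). The MOLM14 ARM165 values of PERP ran from 0 to 29.7, so no direction can be read. TNFRSF14, a lymphocyte receptor gene, had 0, 0, 0 and 0.553 with ARM165 and 3.49, 0.174, 2.00 and 1.37 with DMSO in OCI-AML2, too low to test. TNFRSF14 in MOLM14 had 46.0, 52.3, 51.8 and 53.2 with ARM165 and 59.6, 49.6, 42.6 and 74.6 with DMSO, groups that overlapped (change -0.12 ± 0.23 (adjusted p = 0.653)).

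The metabolic and mitochondrial members split into genes that rose in both lines and genes that fell in OCI-AML2. TIGAR encodes a phosphatase that lowers fructose bisphosphate levels and diverts glucose into the pentose phosphate pathway. In OCI-AML2, TIGAR was at 1467, 900.4, 966 and 1120.5 with ARM165, against 665, 562, 441 and 475 with DMSO. TIGAR in MOLM14 was at 1635, 1763, 2287 and 2439 with ARM165, against 1525, 848, 1019 and 1015 with DMSO. ARM165 libraries were above DMSO libraries, although TIGAR varied more between replicates than most members. TIGAR rose by 1.05 ± 0.26 (adjusted p = 0.00207) in OCI-AML2 and by 0.90 ± 0.19 (adjusted p = 0.000696) in MOLM14. FDXR encodes the mitochondrial ferredoxin reductase, needed for iron-sulphur clusters. In OCI-AML2, FDXR was at 363, 453, 362 and 335 with ARM165, against 295, 296, 313 and 329.9 with DMSO. FDXR in MOLM14 was at 1063, 1124, 1153 and 1155 with ARM165, against 891, 809, 1021 and 822 with DMSO. The groups were close in both lines. FDXR rose by 0.28 ± 0.12 (adjusted p = 0.0436) in OCI-AML2 and by 0.35 ± 0.08 (adjusted p = 0.00114) in MOLM14. The OCI-AML2 call was lost without ARM165 replicate 1, 2 or 3 (adjusted p = 0.0575, 0.151 and 0.0567) and without DMSO replicate 1, 2 or 3 (adjusted p = 0.091, 0.0835 and 0.0644). It was also lost with quantile normalization, median-of-ratios rescaling and no filter (adjusted p = 0.367, 0.0831 and 0.0613). CMBL encodes a cytosolic hydrolase. In OCI-AML2, CMBL was at 293, 372, 338 and 348 with ARM165, against 557, 679, 682 and 585 with DMSO. CMBL in MOLM14 was at 212, 224, 240.5 and 268 with ARM165, against 225, 215, 285 and 285 with DMSO. CMBL was lower in every ARM165 library of OCI-AML2 and overlapped in MOLM14. Its change was -0.89 ± 0.10 (adjusted p = 1.04e-06) in OCI-AML2 and -0.09 ± 0.14 (adjusted p = 0.575) in MOLM14. ACER2 encodes a Golgi ceramidase that releases sphingosine. In OCI-AML2, ACER2 was at 59.6, 78.1, 68.4 and 70.1 with ARM165, against 176, 116, 159 and 127 with DMSO. ACER2 in MOLM14 was at 221, 235, 192 and 233 with ARM165, against 235, 217, 265 and 302 with DMSO. The same held for ACER2, with separate groups in OCI-AML2 only. Its change was -1.04 ± 0.18 (adjusted p = 8.48e-05) in OCI-AML2 and -0.20 ± 0.12 (adjusted p = 0.16) in MOLM14, where quantile normalization gave an adjusted p of 0.00801. SPATA18, whose product acts in the quality control of mitochondria, had 19.9, 20.3, 30.3 and 27.6 with ARM165 and 10.8, 7.38, 6.55 and 4.99 with DMSO in OCI-AML2. It is among the 22, but it passed the filter there only through its ARM165 libraries, so its change of 1.62 ± 0.46 (adjusted p = 0.00568) is given as a description. SPATA18 in MOLM14 had 0, 0, 0.139 and 0.703 with ARM165 and 0, 3.28, 0.762 and 0 with DMSO and was not tested.

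GDF15 stood apart from all other members in size. It encodes a secreted cytokine of the transforming growth factor beta superfamily, which acts on a receptor in the hindbrain and is a common marker of cell stress. In OCI-AML2, GDF15 was at 2060.0, 2102, 2339 and 1960.0 with ARM165, against 16.4, 12.7, 16.6 and 15.9 with DMSO. GDF15 in MOLM14 was at 3270.4, 3076, 3328 and 3447 with ARM165, against 18.2, 13.6, 44.6 and 27.9 with DMSO. In both lines GDF15 was abundant with ARM165 and barely measured with DMSO. GDF15 rose by 7.01 ± 0.29 (adjusted p = 1.15e-11) in OCI-AML2 and by 7.05 ± 0.30 (adjusted p = 1.47e-11) in MOLM14. Its change ranked 12 from the highest of 15377 genes in OCI-AML2 and 19 of 15288 in MOLM14. As ratios of means, GDF15 was 137-fold higher with ARM165 in OCI-AML2 and 126-fold higher in MOLM14, and these ratios rest on DMSO means of 15.4 and 26.1.

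With AZ2, no member was called changed in either line. The counts were 0 of 30 in OCI-AML2, where 0.111% of all genes were called, and 0 of 31 in MOLM14, where 0.0% were. By limma, 733 genes (4.77%) in OCI-AML2 and 899 (5.88%) in MOLM14 had an unadjusted p under 0.05. Among members these were TIGAR in OCI-AML2, and MDM2, TP53INP1, ZMAT3 and XPC in MOLM14. The median change of the members was -0.014 in OCI-AML2 and -0.031 in MOLM14, beside -0.017 and 0.0013 over all genes. MDM2 in MOLM14 was at 2874, 2721, 2902 and 2726 with AZ2, against 3150.3, 3156, 3176 and 3449 with DMSO. TP53INP1 was at 525, 500.2, 581 and 588 with AZ2, against 671, 652, 715 and 657 with DMSO. All 4 AZ2 libraries lay below all 4 DMSO libraries for both genes. ZMAT3 was at 655, 642, 658 and 677 with AZ2, against 701, 819, 776 and 813 with DMSO, and XPC at 418, 380.3, 423 and 416 with AZ2, against 461, 461, 541 and 433 with DMSO. The same was true of these 2 genes. The changes were -0.20 ± 0.048 (adjusted p = 0.426) for MDM2, -0.30 ± 0.064 (adjusted p = 0.419) for TP53INP1, -0.24 ± 0.075 (adjusted p = 0.675) for ZMAT3 and -0.21 ± 0.082 (adjusted p = 0.813) for XPC, so none passed over all genes. Groups without overlap, lower with AZ2, were thus seen for 4 of 31 members in MOLM14, against 2.61% of all genes, and for 0 of 30 in OCI-AML2, against 1.48%. Higher with AZ2 without overlap were 0 of 31 members in MOLM14 (1.82% of genes) and 0 of 30 in OCI-AML2 (1.18% of genes). The shallower AZ2 libraries of MOLM14 go with this contrast, and the part of depth in it was not tested. In OCI-AML2 the same 4 genes had changes of -0.067 ± 0.12, -0.19 ± 0.12, 0.097 ± 0.17 and 0.0087 ± 0.09, all with an adjusted p of at least 0.996. TIGAR in OCI-AML2 had 158, 451, 364 and 352 with AZ2, against 665, 562, 441 and 475 with DMSO, and AZ2 replicate 1 was far below the rest. Its change was -0.77 ± 0.26 (adjusted p = 0.809). For GDF15 the values with AZ2 were 13.8, 9.08, 31.7 and 24.5 in OCI-AML2 and 11.8, 17.9, 23.4 and 11.3 in MOLM14, against DMSO ranges of 12.7 to 16.6 and 13.6 to 44.6. The groups overlapped in both lines, and AZ2 replicates 3 and 4 of OCI-AML2 lay above the DMSO range. For MDM2 the 95% intervals, -0.32 to 0.18 in OCI-AML2 and -0.31 to -0.10 in MOLM14, leave room for small changes only. Those of some other members were wide enough to hold sizeable changes. They were -1.32 to -0.22 for TIGAR in OCI-AML2, and -1.24 to 0.058 for GDF15 and -0.53 to 0.97 for EDA2R in MOLM14. The difference between the lines in the AZ2 response was called for 0 of 29 members (0.028% of 14287 genes), and 0 members had an unadjusted p under 0.05 there.

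**Figure D3:**
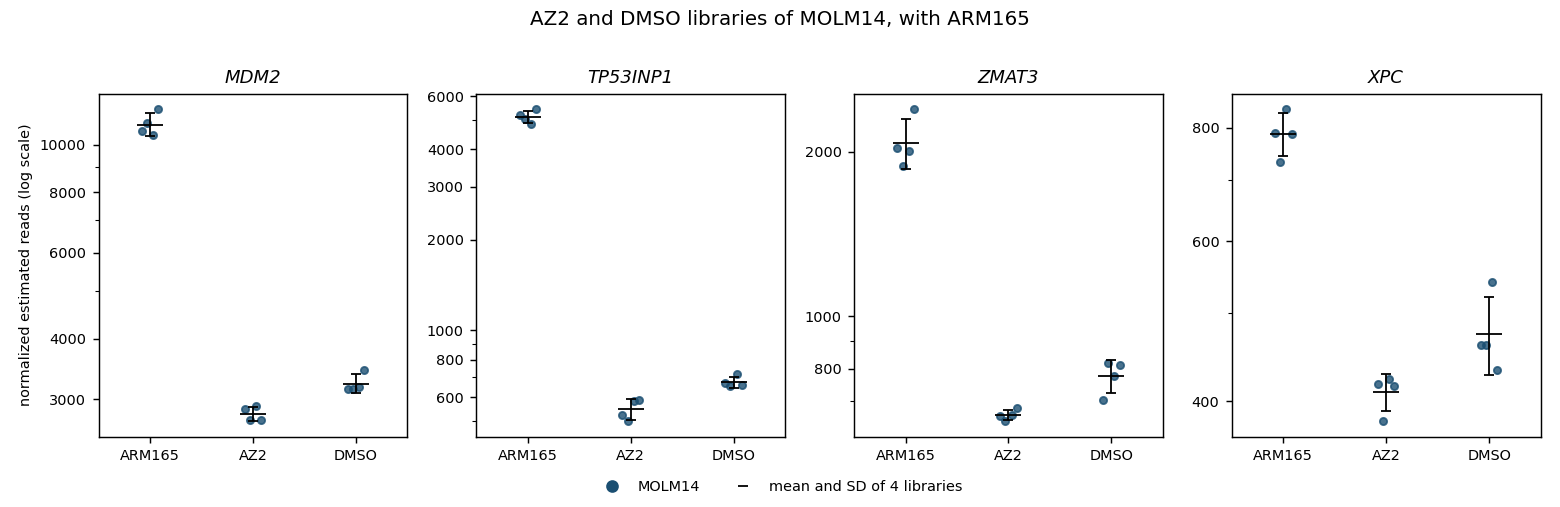
Normalized estimated reads (y axis, log scale) of MDM2, TP53INP1, ZMAT3 and XPC in each MOLM14 library, with ARM165, AZ2 and DMSO from left to right; points are libraries and bars the mean and SD of 4. The 4 AZ2 points lie below the 4 DMSO points in each panel, by much less than the ARM165 points lie above both. These are the 4 members whose AZ2 libraries all lay below the DMSO libraries, so that order follows from their choice.

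Set against AZ2, the ARM165 libraries gave nearly the same picture as against DMSO; both comparisons share the ARM165 libraries, and the doses of the compounds are not given. In OCI-AML2, 22 of 30 members were higher with ARM165 than with AZ2 and 5 were lower, against 34.5% and 31.4% of all genes. The 22 again hold SPATA18, which passed the filter only through its ARM165 libraries. In MOLM14, 22 of 31 were higher and 3 lower, against 36.1% and 34.0%. GDF15 differed by 6.81 ± 0.29 (adjusted p = 1.61e-11) in OCI-AML2 and 7.64 ± 0.30 (adjusted p = 6.03e-12) in MOLM14. MDM2 differed by 1.01 ± 0.12 (adjusted p = 1.39e-06) and 1.97 ± 0.048 (adjusted p = 5.07e-14). RPS27L was called in MOLM14 here and not against DMSO, at 6697, 6829, 6860.1 and 8498 with ARM165 and 6452, 6109, 6058 and 6474 with AZ2 (change 0.20 ± 0.065 (adjusted p = 0.0143)). Its ARM165 replicate 4 stood above the other libraries. POLH in OCI-AML2 came close to the threshold (-0.18 ± 0.079 (adjusted p = 0.0545)) and was called lower without AZ2 replicate 3 (adjusted p = 0.0133) and with other settings. TIGAR differed by 1.82 ± 0.26 (adjusted p = 1.30e-05) in OCI-AML2 and 0.96 ± 0.19 (adjusted p = 0.000378) in MOLM14.

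The lines differed in how far single members moved with ARM165, with a call for 15 of 29 members. Such differences were common over all genes, at 42.4%. The difference of the log2 changes, OCI-AML2 minus MOLM14, was tested in 1 fit of all 24 libraries for the 29 members that passed the filter in both lines. It was called higher for 6 members and lower for 9, where 24.3% and 18.1% of 14287 genes were called. Their median difference was 0.014, beside 0.044 over all genes. Across the 29 members the 2 sets of changes had a Pearson correlation of 0.914, or 0.821 over the 28 members without GDF15. This describes genes in shared libraries, which are not independent, and carries no test. SERTAD1 moved further in OCI-AML2, with a difference of 1.82 ± 0.12 (adjusted p = 2.85e-11), on changes of 4.00 in OCI-AML2 and 2.18 in MOLM14. The same direction was called for TP53I3 (0.73 ± 0.23 (adjusted p = 0.0125)), PLK3 (0.59 ± 0.13 (adjusted p = 0.000546)), MDM4 (0.54 ± 0.14 (adjusted p = 0.00251)), TRAF4 (0.44 ± 0.15 (adjusted p = 0.0198)) and CCNG1 (0.37 ± 0.094 (adjusted p = 0.00256)). RRM2B moved further in MOLM14, with a difference of -1.36 ± 0.14 (adjusted p = 2.31e-08), and so did DDB2 (-0.92 ± 0.11 (adjusted p = 1.86e-07)), MDM2 (-0.82 ± 0.13 (adjusted p = 2.89e-05)), SUSD6 (-0.94 ± 0.17 (adjusted p = 8.78e-05)) and AEN (-0.35 ± 0.076 (adjusted p = 0.000569)). The 2 inhibitors of p53 therefore differed in opposite directions, MDM2 rising further in MOLM14 and MDM4 in OCI-AML2. CYFIP2, called in MOLM14 alone, had a difference of -1.12 ± 0.21 (adjusted p = 0.000107). Of the genes lower in OCI-AML2, the differences were -0.84 ± 0.21 (adjusted p = 0.00201) for ACER2, -0.80 ± 0.17 (adjusted p = 0.000458) for CMBL and -0.34 ± 0.12 (adjusted p = 0.0209) for PIDD1. That of PIDD1 lost its call without MOLM14 ARM165 replicate 3 (adjusted p = 0.0506), and that of TRAF4 with quantile normalization (adjusted p = 0.0698). The other 14 members were not called. For GDF15 the difference was -0.04 ± 0.45 with a 95% interval of -0.97 to 0.89, and for TP53INP1 it was 0.26 ± 0.14 with an interval of -0.029 to 0.55. The intervals were -0.43 to 0.67 for PLK2, -0.58 to 0.88 for TIGAR and -1.53 to 0.12 for EDA2R, wide enough to hold sizeable differences, and -0.19 to 0.22 for TRIAP1.

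**Figure D4:**
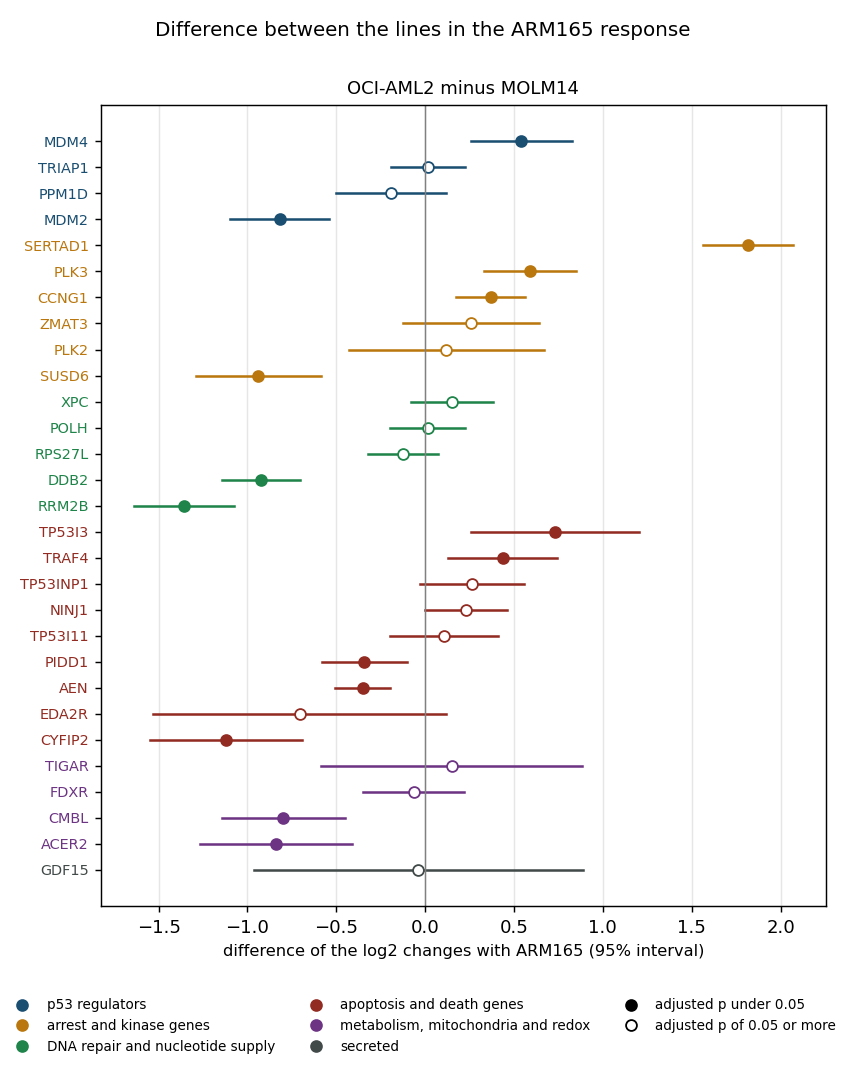
Difference of the ARM165 log2 changes, OCI-AML2 minus MOLM14 (points, x axis), with its 95% interval (bars) for the 29 members tested in both lines; colours mark roles and filled points an adjusted p under 0.05. SERTAD1 lies farthest to the right at 1.82 and RRM2B farthest to the left at -1.36.

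Other genes of the pathway were looked at in 3 lists, chosen, like the members, with earlier results of these data known. Of 65 further p53 target genes, 61 were tested in each line. In OCI-AML2, 39 of these rose with ARM165, 14 fell and 8 did not pass, with a median of 0.65. In MOLM14, 41 rose, 10 fell and 10 did not pass, with a median of 0.82. Over all genes 34.2% rose and 31.6% fell in OCI-AML2, and 35.5% and 34.0% in MOLM14. CDKN1A, the gene of the cell cycle inhibitor p21, averaged 17106 ± 259 with ARM165 and 373 ± 22.6 with DMSO in OCI-AML2, and 45344 ± 2398 with ARM165 and 6985 ± 272 with DMSO in MOLM14 (SD, n = 4). It rose by 5.52 ± 0.092 (adjusted p = 8.36e-16) in OCI-AML2 and by 2.70 ± 0.051 (adjusted p = 2.99e-15) in MOLM14, and the difference between the lines was 2.82 ± 0.11 (adjusted p = 2.05e-15). SESN2, whose product restrains mTORC1, rose by 4.36 ± 0.10 (adjusted p = 2.17e-14) in OCI-AML2 and by 2.72 ± 0.047 (adjusted p = 1.29e-15) in MOLM14 (difference 1.64 ± 0.11 (adjusted p = 4.95e-11)). The antiproliferative gene BTG1 rose by 3.92 ± 0.069 (adjusted p = 1.46e-15) in OCI-AML2 and by 3.44 ± 0.088 (adjusted p = 8.19e-14) in MOLM14. Its relative BTG2 averaged 6249 ± 405 with ARM165 and 904 ± 58.6 with DMSO in MOLM14, a rise of 2.79 ± 0.067 (adjusted p = 4.49e-14). The death receptor gene TNFRSF10B averaged 6765 ± 238 with ARM165 and 1002 ± 82.3 with DMSO in OCI-AML2, a rise of 2.76 ± 0.073 (adjusted p = 8.86e-14).

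Among 30 genes whose products modify p53 or its inhibitors, rises and falls were about equal, each at a share somewhat above that of all genes. In OCI-AML2, 13 of 30 rose and 12 fell, against 34.2% and 31.6% of all genes. In MOLM14, 13 of 29 tested rose and 12 fell, against 35.5% and 34.0%. HIPK2, a kinase that phosphorylates p53, rose by 2.28 ± 0.088 (adjusted p = 5.01e-12) in OCI-AML2 and by 2.87 ± 0.095 (adjusted p = 1.01e-12) in MOLM14. CSNK1A1, which encodes the casein kinase that works with MDM4 to restrain p53, rose by 1.54 ± 0.061 (adjusted p = 5.75e-12) and by 1.46 ± 0.064 (adjusted p = 1.70e-11). CSNK1D, another casein kinase gene, rose by 1.09 ± 0.052 (adjusted p = 5.09e-11) in OCI-AML2, and EP300, an acetyltransferase gene, by 1.58 ± 0.089 (adjusted p = 2.90e-10) in MOLM14. AURKA, a mitotic kinase gene, had changes of -1.16 ± 0.056 (adjusted p = 5.41e-11) and -1.07 ± 0.058 (adjusted p = 2.00e-10). The last list held 30 cell cycle genes known to be repressed through p21 and the DREAM complex. All 30 fell in each line, where 31.6% of all genes fell in OCI-AML2 and 34.0% in MOLM14. As the list was chosen with earlier results known, this count is a description. The part of p21 or DREAM in these falls was not tested. Their medians were -1.40 in OCI-AML2 and -1.30 in MOLM14. MCM3, a subunit of the replicative helicase, averaged 9672 ± 300.2 with ARM165 and 34939.9 ± 1056 with DMSO in OCI-AML2, and 11367 ± 954 with ARM165 and 31978 ± 691 with DMSO in MOLM14. The changes were -2.09 ± 0.054 (adjusted p = 5.67e-14) for MCM2, -1.80 ± 0.054 (adjusted p = 3.28e-13) for MYBL2 and -1.92 ± 0.07 (adjusted p = 2.82e-12) for AURKB in OCI-AML2. In MOLM14 they were -1.49 ± 0.051 (adjusted p = 1.42e-12) for MCM7, -1.54 ± 0.053 (adjusted p = 1.48e-12) for CKS2 and -1.66 ± 0.058 (adjusted p = 1.79e-12) for CDK1. With AZ2, 0 genes of these 3 lists were called in either line. The medians with AZ2 lay between -0.038 and 0.024.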

How the data were processed

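RNA from OCI-AML2 and MOLM14 cells was sequenced from stranded libraries, per the labels' protocols. The deposited tables hold, per gene symbol, a signal in normalized estimated counts, made by the authors with kallisto per the submitters' processing notes. Its version, the genome build, the annotation and the scaling are not given in the sources used here. In each library 15.1 to 15.9% of values lay within 0.01 of a whole number of reads, so whole reads were not recovered and no count model was used. Reads of near-identical genes may be split by such estimates. No column was left out.

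Values were tested as log2(value + 1) with limma 3.58.1 (moderated, mean-dependent variance, two-sided) in R 4.3.3, in 1 fit of 12 libraries per line. Genes needed at least 10 in at least 4 libraries of the line. The difference between lines came from 1 fit of 24 libraries. Benjamini-Hochberg adjustment ran over all genes tested, at a threshold of 0.05. Depth was 35.44 to 58.97 M (mega) estimated reads per library, from the low value that recurs most often, taken as 1 read. The limma script was tested on simulated data with far fewer changed genes than were called with ARM165, so that setting was not covered. The alternatives were pseudocounts of 5 and 0.5, no filter, a filter of 50, quantile and median-of-ratios scaling, only the compared groups in the fit, the replicate block, and leaving out each library.

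The members and lists were chosen with earlier results of these data known. Members shown with every library were up to 4 called per role group with the smallest adjusted p, those below the filter in a line, and any called with AZ2 or in opposite directions in the lines (none of either). EDA2R, CYFIP2 and the RPS27L values beside AZ2 were added after their values were seen. So were the AZ2 values of MDM2, TP53INP1, ZMAT3 and XPC in MOLM14, with their figure, and of TIGAR in OCI-AML2. From each other list, up to 4 called genes per line with the smallest adjusted p were named. Promoter windows are from RefSeq, GRCh38.p14.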

Additional observations from a re-analysis of the deposited data

Results flagged for a closer look

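A library stood apart from the other 3 of its group, by Dixon's test at 95%, in 10 of the 192 groups of 4 that the members form (5.21%), and chance alone gives about 1 in 20. PIDD1 in OCI-AML2 with ARM165 had 2059 in replicate 3, against 1599 to 1673 in the others, and CYFIP2 had 445.2 in the same library, against 358.2 to 369.4. PERP in OCI-AML2 with AZ2 had 10.38 in replicate 3, against 0 to 1.14. TNFRSF14 in OCI-AML2 with ARM165 had 0.5532 in replicate 4, where the others were at 0. In MOLM14 with ARM165, RPS27L had 8498 in replicate 4 against 6697 to 6860, and TRIAP1 had 4584 in that library against 3795 to 3924. PPM1D in MOLM14 with ARM165 had 2250.0 in replicate 3, below the 2646 to 2706 of the others. In MOLM14 with AZ2, replicate 3 was high for TNFRSF14, at 70.15 against 43.58 to 47.65, and for SPATA18, at 1.549 where the others were at 0. MDM2 in MOLM14 with DMSO had 3449 in replicate 4, against 3150 to 3176.

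The ARM165 change differed between the lines, by limma in the fit of 24 libraries, for 15 of 29 members, where 42.4% of 14287 genes were called in either direction. In log2 units, OCI-AML2 minus MOLM14, the difference was positive for SERTAD1 (1.82), TP53I3 (0.729), PLK3 (0.589), MDM4 (0.541), TRAF4 (0.437) and CCNG1 (0.369). It was negative for RRM2B (-1.36), CYFIP2 (-1.12), SUSD6 (-0.94), DDB2 (-0.922), ACER2 (-0.839), MDM2 (-0.819), CMBL (-0.798), AEN (-0.352) and PIDD1 (-0.341). Their standard errors and adjusted p-values are with the comparison of the lines.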

How the results depend on the processing

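Of 241 results on single members, 225 kept their side of the threshold under every alternative run, and 16 did not. Direction was compared only where the main or the alternative result was called. Of 5508 recomputed values, 39 lost a call, 11 gained one and 0 changed sign after a call. Counts of members higher with ARM165 than with DMSO ran from 19 to 22 in OCI-AML2 when 1 library was left out, and stayed at 21 in MOLM14. The lower counts ran from 4 to 5 and stayed at 3. Against AZ2 they ran from 20 to 22 higher and 5 to 6 lower in OCI-AML2. With quantile normalization 5 members in place of 3 were lower with ARM165 than with AZ2 in MOLM14, where that scaling moved the median change of all genes to -0.062 from 0.040. It gave 19 higher and 6 lower against DMSO in OCI-AML2, and 22 and 4 in MOLM14. In OCI-AML2, SUSD6 (adjusted p = 0.0688) and DDB2 (0.108) also lost their call against AZ2 with this scaling. No clear pairing by replicate number was seen: same-numbered deviations correlated at -0.0373 to 0.0558, and 0 of 12 pairs per line exceeded 0.1. The medians were 0.0186 for same and -0.00742 for different numbers in MOLM14, and 0.0114 and -0.00504 in OCI-AML2. Correlations this weak do not settle whether same-numbered libraries shared a culture. With the replicate block, 20 members were higher and 5 lower in OCI-AML2 against DMSO, and 21 and 3 in MOLM14. SUSD6 (adjusted p = 0.0545) and FDXR (0.0691) lost their OCI-AML2 calls. Over all genes, the block called 10 in OCI-AML2 with AZ2, in place of 17. Of 84 results on genes of the other lists, 0 changed sign after a call. Of their 2016 recomputed values, 16 lost a call and 5 gained one. The line difference of CKS2 (adjusted p = 0.0335) was lost in 7 alternatives (adjusted p up to 0.0807). That of APAF1 (adjusted p = 0.0314) was also lost in several (adjusted p up to 0.0726). With 4 libraries a group, genes near 0 such as PERP in both lines and TNFRSF14 in OCI-AML2 allow no direction to be read.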

Other observations

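Of the 65 further p53 target genes, 59 were tested in both lines: 34 rose with ARM165 in both, 7 fell in both and 4 were called in opposite directions. Over all 14287 genes tested in both lines these shares were 26.8%, 24.6% and 4.45%. The genes below were picked out after their values were seen. KITLG encodes stem cell factor, the ligand of the receptor KIT. It averaged 476 ± 81.9 with ARM165 and 107 ± 43.5 with DMSO in OCI-AML2, and 390 ± 54.9 with ARM165 and 883 ± 71.1 with DMSO in MOLM14 (SD, n = 4). No ARM165 library of KITLG overlapped the DMSO range in either line. Its changes were 2.23 ± 0.27 in OCI-AML2 and -1.19 ± 0.10 in MOLM14, and the difference between the lines was 3.42 ± 0.30 (limma, adjusted p = 3.17e-09). The tetraspanin gene CD82 moved the other way, with changes of -0.66 ± 0.078 in OCI-AML2 and 0.73 ± 0.17 in MOLM14 (difference -1.39 ± 0.19, adjusted p = 1.76e-06). PLTP, the gene of a phospholipid transfer protein, changed by -0.88 ± 0.085 in OCI-AML2 and by 0.63 ± 0.20 in MOLM14 (difference -1.51 ± 0.19, adjusted p = 6.91e-07). Under quantile normalization PLTP was no longer called in MOLM14 (adjusted p = 0.149). NTPCR, a nucleotide triphosphatase gene, had changes of -0.22 ± 0.071 in OCI-AML2 and 0.30 ± 0.087 in MOLM14 (difference -0.52 ± 0.12, adjusted p = 0.00075).

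The 7 genes lower in both lines were STEAP3, CASP1, TNFAIP8, SAC3D1, PANK1, APAF1 and PLCL2. STEAP3 encodes an endosomal ferrireductase. It averaged 258 ± 42.0 with ARM165 and 1225 ± 88.0 with DMSO in OCI-AML2, and 684 ± 35.4 with ARM165 and 3161 ± 441 with DMSO in MOLM14. Its changes were -2.26 ± 0.11 and -2.20 ± 0.12, with a line difference of -0.058 ± 0.17 (95% interval -0.41 to 0.30). CASP1, the inflammasome caspase gene, changed by -1.45 ± 0.077 in OCI-AML2 and by -0.86 ± 0.08 in MOLM14. APAF1, which encodes the apoptosome scaffold, changed by -0.69 ± 0.11 in OCI-AML2 and by -0.32 ± 0.059 in MOLM14. TNFAIP8 averaged 2176 ± 298 with ARM165 and 7310.4 ± 509 with DMSO in OCI-AML2, and 2091 ± 268 with ARM165 and 3070 ± 135 with DMSO in MOLM14. Its line difference was -1.19 ± 0.12 (adjusted p = 4.18e-08).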
